A study of Caenorhabditis elegans with 6 samples.

Results

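These measurements compare gene expression between ets-4(uz1) mutants and the wild-type strain N2 of the nematode Caenorhabditis elegans in L4 larvae, the last larval stage before the adult. The arrays were chosen by their titles, which pair N2 with uz1, and they are 3 of the 6 arrays of the series. The other 3 arrays set N2 against a second mutant strain, ets-4(ok165), and are used here for the shared estimate of each gene's spread and for the test of a difference between strains. All worms were hypochlorite-synchronized, grown on plates with OP50 bacteria and collected whole at L4 (late L4, per the study's methods). Each RNA pool therefore holds every tissue. The recorded growth temperature was the same for all 6 arrays. The uz1 deletion removes most of the sequence coding for the ETS DNA-binding domain and the 3′ end of ets-4 but leaves the PNT domain, whereas ok165 lacks the coding sequence of both domains. The uz1 strain came from a chemically mutagenized library and was outcrossed to N2, and it is a single line. Its larvae grow more slowly than wild type, as described in the study, so that for genes that change with age, strain and developmental timing cannot be told apart. Nothing in the labels says whether the 3 arrays came from separate cultures, so p-values measure the spread between these arrays, which may be partly technical.

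ETS proteins are transcription factors that bind DNA sequences built around a GGA core through a conserved winged helix domain. ETS-4 belongs to the members with an additional PNT domain, a protein-protein interaction module, and the study examined it as a regulator of adult lifespan acting in the intestine. The worm intestine combines digestion, fat storage, innate defense and, from the end of larval life, the synthesis of yolk for the oocytes, while the epidermis lays down a new collagenous cuticle at every molt. The gene families that serve these roles are therefore the ones described in most detail.

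On each array, wild-type RNA was labeled with the green dye Cy3 and mutant RNA with the red dye Cy5, and no array had the dyes swapped. Values are log2 ratios of mutant to wild type, so that 1 is a 2-fold higher and -1 a 2-fold lower mutant signal. A gene's own dye preference adds to all 3 ratios and cannot be told apart from its expression difference. Of the 21482 spots for worm sequences, 68.7 to 72.9% were well above background in the wild-type channel and 72.8 to 78.3% in the mutant channel, and 13 to 23 spots per array were flagged as outliers. The number of arrays limits the precision. Over 14722 genes the ratios of the arrays correlated at r = 0.54 (arrays 1 and 2), 0.41 (1 and 3) and 0.40 (2 and 3), as a description across genes, which are not independent replicates.

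The targeted gene itself was examined first. The ets-4 probe gave log2 ratios of -3.18, -3.08 and -2.84 on arrays 1, 2 and 3. Wild-type signals were 764, 750 and 386 (arbitrary fluorescence units), against mutant signals of 84.5, 88.4 and 53.9. The mutant signal was thus lower on every array, with a mean log2 ratio over 3 arrays of -3.03 ± 0.21, or 8.19-fold (limma adjusted p = 0.0014). Here and below, ± is the SE of the limma fit to all 6 arrays, which draws on the spread in both strains and across genes. In ets-4(ok165) the mean was -3.04, and the difference between strains was 0.01 (adjusted p = 0.998). Whether the probe lies within the sequence deleted in either allele is not known from the files. The loss of signal thus checks which channel held a mutant, but not which allele, and does not measure the remaining transcript. No other member of the ETS family passed the test among the 7 that were tested.

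Of 14760 genes tested, 522 (3.54%) differed from wild type at an adjusted p under 0.05 by limma. The mutant signal was higher for 325 genes (2.2%) and lower for 197 (1.33%). Counts of called family members below are to be read against these shares. The increases were more numerous and smaller, with a median log2 ratio of 1.32 against -1.61 for the decreases, while the median over all genes was 0.03. A gene entered the test if 1 or both channels stood well above background on 3 or more of the 6 arrays, as 14760 of 18873 genes did, and counts of family members below refer to those that passed (for example, 137 of 237 C-type lectin genes). A change of 8-fold or more was seen for 10 of the higher and 19 of the lower genes. Of the 522 genes, 521 had the same sign on all 3 arrays, and the remaining gene had no value on array 1. Selection by the mean of these same arrays favors such agreement, so it is only a description. Of all 14760 genes, 3012 were positive and 2850 negative on all 3 arrays. Arrays with the same number in the 2 strains deviated together, and with that number as a block 1063 genes (7.2%) were called higher and 1229 (8.33%) lower, including all 522. The block takes the variation shared by same-numbered arrays out of the error. Its p-values therefore do not measure the whole spread between the 3 ets-4(uz1) arrays, and a call with the block is not stronger evidence. Family counts with the block are to be read against 7.2% and 8.33%. Without the filter on dim probes 90 genes were higher and 38 lower. The calls also depended on having all 3 arrays. Without array 1, 2 or 3, the genes called higher numbered 29, 43 and 46, and those called lower 31, 19 and 50, and 38 of the 522 genes (23 higher, 15 lower) kept their call in each of these fits. These 38 are referred to below as kept with any array left out.

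**Figure D1:**
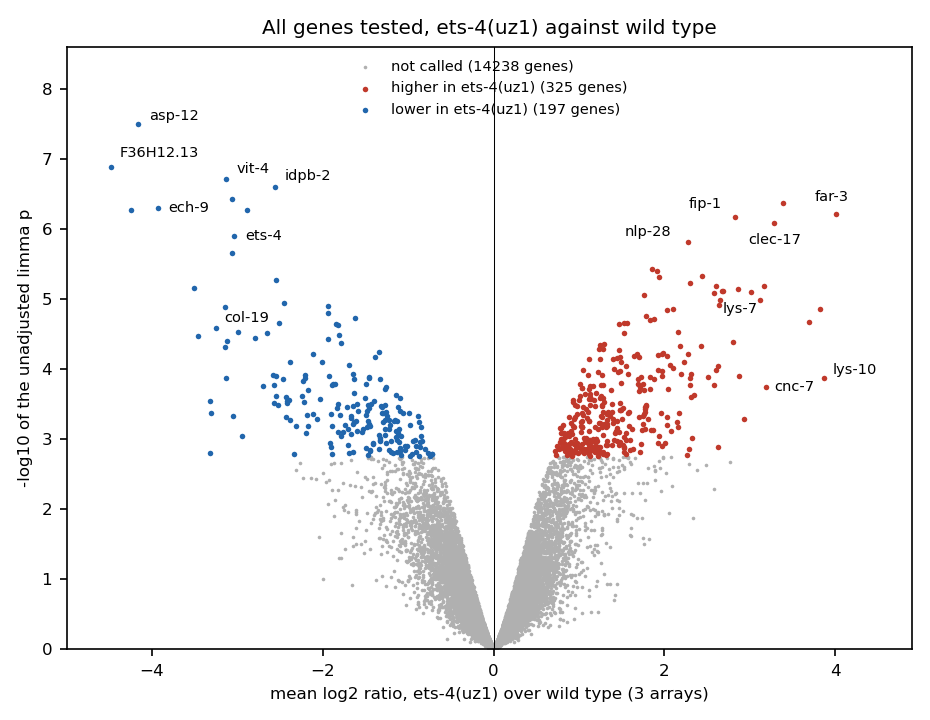
Each point is a tested gene, placed by its mean log2 ratio of ets-4(uz1) to wild type over 3 arrays (horizontal axis) and the -log10 of its unadjusted limma p (vertical axis), with the 325 genes called higher in red, the 197 called lower in blue and the others in gray. F36H12.13 (-4.48), F36H12.14 (-4.25) and asp-12 (-4.16) lie farthest to the left and far-3 (4.01) farthest to the right.

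The largest increase was that of far-3, which encodes a fatty acid and retinol binding protein of a nematode-specific family. Its ratios were 3.96, 3.80 and 4.27, from wild-type signals of 7508, 5359 and 3694 to mutant signals of 116550, 74652 and 71129. All 3 mutant signals lay far above all 3 wild-type signals, and the mean of 4.01 ± 0.25 (16.1-fold, adjusted p = 0.00089) was kept with any array left out. Next came the neighboring genes F48C1.8 (4.09, 3.67 and 3.69) and F48C1.9 (3.29, 3.41 and 4.40), whose products have no role given here. Among the ranked genes, the C-type lectin gene clec-17 followed with 3.63, 3.01 and 3.20 (mean 3.28, 9.72-fold), and the caenacin antimicrobial peptide genes cnc-7 (2.42, 2.75 and 4.39) and cnc-2 (1.89, 2.62 and 4.30) were highest on array 3. The lysozyme gene lys-7 gave 3.15, 2.73 and 3.18 (mean 3.02, 8.11-fold). Here too the channels did not overlap, with wild-type signals between 9760 and 12595 and mutant signals between 64600 and 114480. Genes whose wild-type channel was dim on all 3 arrays, among them lys-10 and lmd-4, were not ranked and are described below with bounds. Of those ranked, clec-17 was well above background in wild type on 2 arrays and Y39H10A.1 on 1. The other members of the 12 largest increases were Y41G9A.5, T20D4.12, C45B2.2, Y39H10A.1 and fip-1, at mean log2 ratios of 2.83 to 3.17.

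The lowest mean ratio was that of F36H12.13, with ratios of -4.59, -4.15 and -4.71 and a mean of -4.48 ± 0.22 (22.3-fold lower, adjusted p = 0.00089). Its wild-type signals lay between 681 and 807, and its mutant signals between 28.5 and 38.5, and the mutant channel stood well above background on 1 of the 3 arrays, so that the size of the fold is uncertain. The related F36H12.14, annotated as a pseudogene, was at least 9.59-fold lower, a bound because no array had a mutant channel well above background. The aspartyl protease gene asp-12, a member of a family active in digestive and lysosomal compartments, gave -4.44, -4.09 and -3.96 (mean -4.16, 17.9-fold lower, adjusted p = 0.00047). For ech-9, which encodes an enoyl-CoA hydratase of fatty acid breakdown, the arrays nearly coincided at -3.96, -3.94 and -3.88 (15.2-fold lower, with the mutant channel well above background on 2 of the 3). Other large decreases varied more between arrays, among them oac-10, an acyltransferase gene (-2.64, -4.61 and -2.69), and clec-70, a C-type lectin gene (-3.46, -4.52 and -1.93), both weakest or strongest on a single array. The mutant channel of clec-70 was well above background on 1 array and its wild-type channel on 2. Of the 12 largest decreases, F36H12.13, asp-12, ech-9, Y57G11B.5 and Y37D8A.19 were kept with any array left out.

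**Figure D2:**
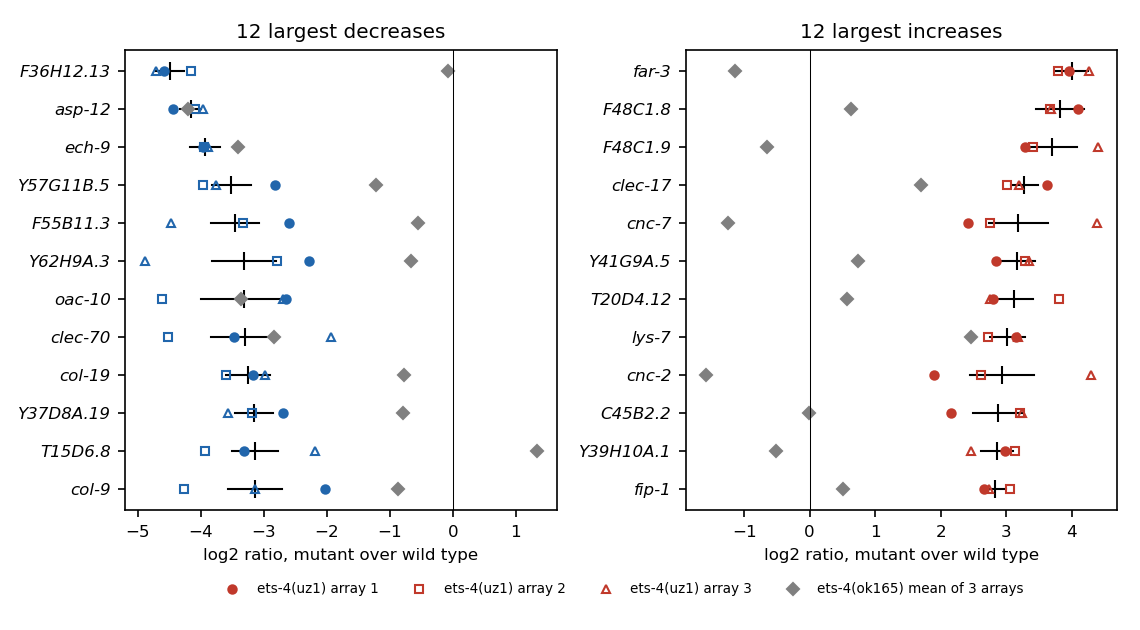
Log2 ratios to wild type (horizontal axis) on each of the 3 ets-4(uz1) arrays (colored symbols), their mean (tick) with its SE from the limma fit to the arrays of both strains (horizontal line) and the mean of the 3 ets-4(ok165) arrays (gray diamonds), for the 12 genes with the largest decrease and the 12 with the largest increase among those called. The 3 ets-4(uz1) arrays of each gene fall on the same side of 0, which the choice of called genes favors. Y62H9A.3 (-2.27 to -4.88) and clec-70 (-1.93 to -4.52) spread widely.

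Yolk genes were lower as a family. Vitellogenins are lipoproteins that the hermaphrodite intestine secretes and oocytes take up, and their synthesis starts around the transition to the adult. All 6 tested members were called lower, where 1.33% of all genes were, and the median was -2.63. The vit-4 ratios were -3.34, -3.14 and -2.92 (mean -3.13 ± 0.16, 8.77-fold lower), those of vit-3 were -3.06, -3.10 and -3.01 (8.33-fold), and those of vit-5 were -3.12, -2.91 and -2.63 (7.39-fold). For vit-2 the ratios were -1.70, -1.78 and -2.32 (mean -1.93). The 4 genes vit-2 to vit-5 were kept with any array left out. The other members, vit-6 (-1.52, -2.82 and -2.81, mean -2.38) and vit-1 (-1.46, -1.34 and -2.11, mean -1.64), passed the test with all arrays. In ets-4(ok165) the 6 means ran from -2.16 (vit-3) to -0.73 (vit-1), and no vitellogenin differed between the strains at an adjusted p under 0.05. vit-3, vit-4 and vit-5 are near-identical copies, and whether their probes tell them apart was not tested.

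The wild-type channel of these genes varied between arrays. For vit-4 the wild-type signals were 12322, 6889 and 46376, and the mutant signals 1220, 780 and 6132, so that both channels were highest on array 3 while the ratio stayed nearly the same. After each channel was centered on its median, the median vitellogenin was 1.56 higher on array 3 than on the mean of arrays 1 and 2 in wild type (log2), 1.30 higher in ets-4(uz1), and 1.36 higher in the wild-type channel of the ok165 arrays. Over all genes the same medians were -0.08, -0.08 and -0.21. This comparison was made after the values were seen. In whole worms, fewer cells of a type and less RNA per cell cannot be told apart.

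Other genes of lipid metabolism moved in both directions. Among the FAR family of 8 tested genes, far-3 and far-4 were higher and none was lower, with a median of 0.64, and with the block 5 were higher. far-4 was at least 2.76-fold higher, its wild-type channel being not well above background on all 3 arrays (log2 ratios of 1.79, 2.69 and 2.41). Of 59 tested β-oxidation genes, none was higher and 4 (6.78%) were lower, against 1, 1 and 2 without array 1, 2 or 3, while the median was -0.08. Besides ech-9 these were acdh-2, an acyl-CoA dehydrogenase gene (-3.22, -3.0 and -2.17, mean -2.80), acox-1.5, a peroxisomal acyl-CoA oxidase gene (mean -1.72), and acdh-9 (mean -0.84). With the block the count of this group was 2 higher and 11 lower, and only ech-9 was kept with any array left out. The intracellular lipid-binding protein genes lbp-1 and lbp-5 changed in opposite directions, with means of 0.91 and -1.69, and neither was called without array 1, 2 or 3. With the block 2 members of that family were higher and 3 lower. None of 17 desaturase and elongase genes passed the test (median -0.15), and with the block 1 was higher and 2 lower.

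Genes of epithelial and intestinal defense split by family. The peptides of the nlp-29 group and the caenacins are small, glycine-rich antimicrobial peptides made mainly in the epidermis and induced by fungal infection or wounding. Of 17 tested, 6 (35.3%) were higher and none lower, against 2.2% of all genes, and the median was 1.26. The neighbors nlp-31 (2.01, 2.66 and 3.09), nlp-28 (2.22, 2.37 and 2.22) and nlp-27 (2.76, 3.40 and 1.73) had means of 2.59, 2.27 and 2.63, and the first 2 of them were kept with any array left out. Between them on the chromosome, nlp-30 gave 0.65, 0.44 and 2.12 and did not pass (adjusted p = 0.16). The other called members were cnc-2, cnc-7 and cnc-10. With the block the count was 13 higher and 1 lower, and the added genes included cnc-3 (mean 1.26, adjusted p = 0.054 without and 0.026 with the block) and nlp-34 (mean 1.95, 0.060 and 0.0095). Without array 1, 2 or 3 the count was 2, 2 and 3 higher. The same 17 genes had a median of -0.06 in ets-4(ok165), and the strain difference was tested gene by gene below.

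Of 22 tested fungus-induced protein genes, fip-1 (2.67, 3.07 and 2.74), fipr-24 (2.56, 3.31 and 2.04), fip-6 (1.94, 1.54 and 3.09) and fip-5 (0.80, 1.64 and 1.71) were higher and none was lower (18.2%), although the median was 0.12. With the block 5 were higher and 7 lower, so that the balance turned. fip-1 and fipr-24 were kept with any array left out. The fipr genes did not behave alike: 7 of 17 were lower on arrays 1 and 3 and higher on array 2, and none of those 7 was called without the block. The lysozyme genes lys-7 and lys-10 were higher among 14, whose median was -0.37, and with the block 4 others were lower. lys-10 was at least 12-fold higher, since its wild-type channel was not well above background. Thaumatin-like genes, which in plants encode antifungal proteins, were higher for 3 of 4, namely thn-1 (1.99, 1.14 and 2.77), thn-2 (1.85, 1.49 and 2.57) and thn-7 (1.48, 1.13 and 2.70). The fourth, thn-3, is annotated as a pseudogene, and its wild-type channel was well above background on 1 array. It gave 1.52, 1.29 and 3.25 and passed limma with the block (adjusted p = 0.0041) but not without it (0.064). All 4 were strongest on array 3, and without array 1, 2 or 3 the count was 0, 1 and 0.

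Other defense families, known mainly from the intestine, held more decreases than increases. Saposin-like genes encode membrane-acting antimicrobial proteins, and 4 of 17 (23.5%) were lower and none higher, with a median of -0.45. They were spp-3 (-2.03, -2.35 and -1.12), spp-4 (-1.81, -2.10 and -0.89), spp-17 (-1.31, -1.88 and -0.80) and spp-14 (-0.96, -1.13 and -0.51), and all 4 were weakest on array 3. With the block 8 were lower and 1 higher. Among 15 genes encoding CUB-like domain proteins of the infection response (median -0.81), 4 (26.7%) were lower and 1 (6.67%) higher. Of all genes, 1.33% were lower and 2.2% higher. The lower members were irg-4, irg-6, dod-22 and dod-23 (means of -1.03 to -1.67). The higher one was dct-19 (mean 1.48), above background in wild type on 1 array. Without array 1, 2 or 3 none was lower. With the block 7 were lower and 1 higher. Of 137 tested C-type lectin genes, 5 (3.65%) were higher and 8 (5.84%) lower (median -0.13, 11 and 29 with the block). Besides clec-17 the increases included clec-7 (mean 2.04) and clec-61 (mean 2.16, with 2.56, 0.88 and 3.04), and the decreases clec-70, clec-68 (mean -2.57), clec-67 (mean -2.55) and clec-52 (mean -1.81). Without array 1, 2 or 3 the lectin counts were 1, 3 and 1 higher and 0, 0 and 4 lower. Saposin-like genes then gave 0, 0 and 1 lower.

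The cell type markers of the intestine had a negative median as well. None of 20 intestinal markers was called, and their median was -0.35, with -0.20, -0.79 and -0.09 on arrays 1, 2 and 3. The summed signal of the 20 markers changed by 0.05, -0.80 and -0.33 on the log2 scale, and elt-2, the intestinal GATA factor gene, gave -0.28, -1.28 and 0.10. With the block 4 of the 20 were called lower and none higher. All 20 were well above background in both channels of the 3 arrays. The markers include the saposin-like gene spp-5. Their part in the saposin-like, CUB-like and vitellogenin values was not tested.

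**Figure D3:**
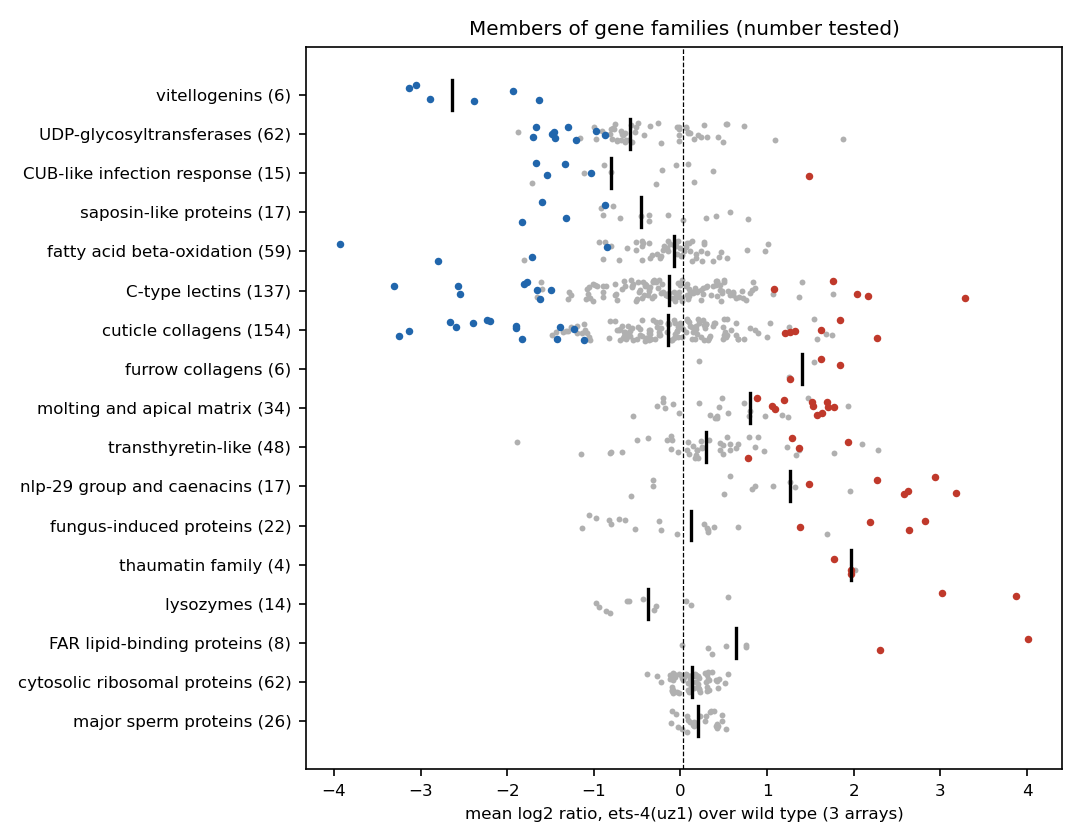
Mean log2 ratio of ets-4(uz1) to wild type (horizontal axis) for each tested member of 17 gene families, called higher in red, called lower in blue and not called in gray, with the family median (thick tick) and the median of all genes (dashed line). The 6 vitellogenins all lie below -1.6, while the nlp-29 group and caenacins (median 1.26) and the furrow collagens (median 1.41) lie mostly above 0.

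Genes of the cuticle and of the molt fell into groups of opposite sign. The cuticle is rebuilt under the old one at each molt, first with a transient apical matrix and the collagens of its circumferential furrows, and later with stage-specific collagens. Among 34 tested genes of molting and of the apical matrix, 11 (32.4%) were higher and none lower, with a median of 0.80 and array medians of 0.80, 0.59 and 1.01. The called members included the lipocalin genes lpr-3 (1.64, 1.91 and 1.76), lpr-5 (1.29, 2.07 and 1.75), lpr-6 (mean 1.53) and lpr-4 (mean 1.52), the zona pellucida domain gene let-653 (1.24, 1.99 and 1.65) and the leucine-rich repeat gene let-4 (1.44, 1.82 and 1.83). Several others narrowly missed the threshold, such as lpr-1 (mean 1.24, adjusted p = 0.050), noah-1 (mean 1.17, 0.051) and fbn-1 (mean 1.93, 0.054). With the block the group gave 21 higher and 1 lower, and without any 1 of the arrays it gave 0.

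The furrow collagens are a set of 6 whose loss shortens the body. dpy-2 (1.40, 2.43 and 1.68), dpy-7 (1.28, 2.01 and 1.59) and dpy-8 (1.01, 1.34 and 1.47) were higher, and dpy-10 (1.48, 1.86 and 1.30, adjusted p = 0.050) and dpy-9 (0.85, 1.59 and 1.31, adjusted p = 0.060) narrowly missed the threshold. The sixth, dpy-3, was at 0.20, 0.05 and 0.41 (adjusted p = 0.59), but both of its channels were saturated on array 1, so its ratio there is not measured. The family median was 1.41, and with the block 5 members were higher. Across all 154 tested cuticle collagens the balance was the reverse, with 6 (3.9%) higher and 14 (9.09%) lower, against 2.2% and 1.33% of all genes. The median was -0.15 (20 higher and 25 lower with the block). Without array 1, 2 or 3 none was higher and 6, 1 and 0 were lower.

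The strongest collagen decrease was that of col-19, a collagen gene switched on as larvae become adults. Its ratios were -3.17, -3.59 and -2.98 (mean -3.25 ± 0.34, 9.50-fold lower, adjusted p = 0.0075), and its wild-type signals were 54368, 27728 and 246540. The remaining 4 adult-cuticle collagens on the list were not called and did not move alike. bli-1 (1.08, 0.47 and 1.12) and bli-2 (1.23, 0.32 and 0.67) lay above 0 on all 3 arrays, and with the block bli-2 was called higher. col-7 (-0.35, 0.36 and -2.30) and rol-1 (0.20, -1.14 and -0.24) changed sign between arrays. Both channels of rol-1 were saturated on array 1, so its ratio there is not measured. Other collagens called lower included col-9 (-2.02, -4.26 and -3.14), col-8 (-2.07, -3.13 and -2.77), col-179 (-1.42, -3.03 and -3.32) and col-129 (-1.52, -2.19 and -3.0). Like col-19, each of these had more wild-type signal on array 3 than on the other 2. The collagens called higher besides the furrow genes included col-98 (2.38, 3.13 and 1.29) and col-90 (1.36, 1.62 and 1.0). None of 12 heterochronic genes, which time the larval stages, passed the test, and with the block 1 was higher and 1 lower. lin-29, which acts at the switch from larva to adult, gave 0.03, 0.34 and 0.52.

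Other families tied to the epidermis were mixed. Hedgehog-related and patched-related genes, which in worms act in the epidermis and in trafficking at molts, gave 6 (8%) higher and 2 (2.67%) lower among 75 (median 0.33). The higher ones included wrt-10 (mean 1.81), wrt-1 (1.34, 1.18 and 1.18), qua-1 (mean 1.09) and ptr-22 (2.52, 1.53 and 2.49), and the lower ones were grl-30 (mean -2.42) and grl-27 (mean -1.92). Without array 1, 2 or 3 the calls were 0, 1 and 0, and with the block 13 were higher and 7 lower. Of 48 transthyretin-like genes, 4 were higher, led by ttr-26 (1.48, 2.55 and 1.79), and none was lower. Astacin metalloproteases gave 3 lower of 29 (nas-20, nas-1 and nas-8). Without array 1, 2 or 3 no transthyretin-like gene was called, and the astacin count was 0, 0 and 1 lower. With the block 19 transthyretin-like genes were higher and 5 lower, and 6 astacin genes were higher and 3 lower. Of 15 epidermal markers, wrt-2 and dpy-7 were higher and none was lower (5 higher with the block), with a median of 0.25 and a summed signal 0.74, 0.98 and 0.70 higher on arrays 1, 2 and 3. The medians of the 15 markers on arrays 1, 2 and 3 were 0.50, -0.02 and 0.41. All 15 markers were above background in every channel. The marker list shares dpy-7 with the furrow collagens and fbn-1 with the molting genes, so it is not independent of those families. How far the marker values bear on the furrow, molting and nlp-29 group values was not tested.

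Of the detoxification families, the UDP-glycosyltransferases held the most calls. UDP-glycosyltransferases conjugate foreign compounds and metabolites with sugars, and 9 of 62 (14.5%) were lower and none higher, with a median of -0.59. ugt-31 (-1.56, -1.70 and -1.84), ugt-26 (-1.13, -1.53 and -2.36), ugt-28 (-1.10, -1.46 and -1.87) and ugt-30 (-1.06, -1.63 and -1.69) led the decreases. ugt-57 went the other way with 1.5, 2.23 and 1.91 but did not pass (adjusted p = 0.058). With the block the family gave 4 higher and 24 lower, and without any 1 of the arrays it gave 0. Cytochrome P450 genes gave 4 (6.35%) higher and 1 (1.59%) lower of 63, against 2.2% and 1.33% of all genes. Among them were cyp-13A10 (1.54, 2.21 and 1.57), cyp-13A1 (1.53, 1.5 and 1.40) and cyp-34A8 (-0.77, -0.97 and -1.56). Without array 1, 2 or 3 the P450 calls were 0, 1 and 1 (14 higher and 5 lower with the block). None of 39 glutathione S-transferase genes was called, and with the block 2 were higher and 6 lower.

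Several large families held few called genes. Nuclear hormone receptors gave 5 higher and 1 lower of 187 (3.21%, against 3.54% of all genes). Chemoreceptors gave 4 higher and 2 lower of 188 (3.19%), and F-box genes 1 higher and none lower of 175 (0.57%). Every chemoreceptor and F-box gene called higher had a wild-type channel that was dim on all 3 arrays. Nuclear hormone receptors gave none without array 1, 2 or 3. The blocked counts were 17 higher and 37 lower for the receptors, 12 and 16 for chemoreceptors and 8 and 28 for F-box genes. Decreases outnumbered increases in all of them, as they did over all genes with the block (7.2% higher and 8.33% lower). Of the MATH domain genes, 4 of 68 were lower, 3 of them neighbors described below, and with the block 8 were higher and 15 lower. No member passed the test among 62 cytosolic ribosomal protein genes, 58 listed neuropeptide genes, 26 major sperm protein genes, 19 insulin-like peptide genes, 13 small heat-shock protein genes, 10 GATA factor genes, or the 10 superoxide dismutase, catalase and metallothionein genes. In the blocked fit the major sperm protein genes stayed at 0 and each other list gained 1 to 4 calls. The neuropeptide genes nlp-4 (mean 1.97), pdf-1 (0.72) and nlp-69 (-2.51) were not on the list and were called. The 10 tested genes of the insulin signaling pathway to DAF-16, a longevity pathway whose output is the FOXO factor, were also uncalled with and without the block (median -0.14). daf-16 itself gave 0.07, 0.51 and 0.36, and its targets sod-3 and mtl-1 gave 0.48, 0.84 and 0.49 and 1.55, 0.01 and 2.24. With the block mtl-1 passed (limma adjusted p = 0.029), although its 3 ratios ran from 0.01 to 2.24, and daf-16 and sod-3 did not.

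Markers of germ cells differed between the arrays. The 17 oocyte markers had a median of 0.85, 0.87 and -0.11 on arrays 1, 2 and 3, and the 19 sperm markers 0.27, 0.57 and -0.19, and none was called. In the wild-type channel the median oocyte marker was 1.25 higher on array 3 than on arrays 1 and 2 (log2, channels centered), against 0.18 in ets-4(uz1) and 1.39 in the wild-type channel of the ok165 arrays. None of 12 body wall muscle markers (median 0.27), 14 pharyngeal markers (-0.03) and 22 neuronal markers (0.01) was called. With the block 3 muscle and 2 neuronal markers were higher, and no germ cell or pharyngeal marker was called.

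The same feature marked some of the largest decreases. The wild-type signals of F55B11.3 were 344, 125 and 7964, and its ratios -2.59, -3.32 and -4.47. In Y62H9A.3 the wild-type signals were 257, 94.7 and 6851 and the ratios -2.27, -2.79 and -4.88. Relative to arrays 1 and 2, both genes were higher in the wild-type channel of array 3, by 5.16 and 5.35 on the log2 scale. Their mutant signals (57.1, 12.5 and 359 for F55B11.3, and 53, 13.7 and 232 for Y62H9A.3) were well above background on 1 array each, so no size is given for that channel. Over all tested genes, 75 had a wild-type channel over 8-fold higher on array 3 than on the mean of arrays 1 and 2, and 21 of these were called lower and 0 higher, where 1.33% of all genes were called lower. The wild-type signal is the denominator of the ratio, so this selection itself favors lower ratios and the count is only a description. asp-12 went the other way, with wild-type signals of 55145, 48940 and 8840 and ratios that stayed between -3.96 and -4.44. The genes were grouped this way after their values were seen, and the part of differences in the wild-type pools was not tested.

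Some called genes lay side by side on a chromosome. There were 10 runs of at least 3 genes called in the same direction with at most 3 annotated protein-coding genes between successive members, 6 of them higher and 4 lower. Chromosome V held 109 of the 325 higher genes (3.58% of its tested genes), followed by X with 66 (3.28%), and the shares of chromosomes I to IV lay between 1.25 and 1.72%. The share of lower genes was highest on IV (2.03%) and X (1.84%).

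The higher runs were led by T28A11, where 6 of 8 tested genes on V were called, with means from 1.03 (T28A11.2) to 2.80 (T28A11.3). In wild type, T28A11.18 was dim on all 3 arrays, and T28A11.3 and T28A11.20 were well above background on 1. T28A11.16 (2.22, 2.95 and 2.14) and T28A11.19 (1.86, 2.17 and 1.72) were kept with any array left out. A second run on V joined C17B7.12, C04E12.2, T20D4.15, T20D4.12 and T20D4.11 (means 1.41 to 3.12), and another held C36C5.12, C36C5.14 and C36C5.15 (means 2.07 to 2.58). On array 2 the 3 C36C5 genes were highest, at 2.86, 3.21 and 2.59. The nlp-31 to nlp-27 run on V and the run of C09F12.2, lpr-3, lpr-6, lpr-5 and lpr-4 on X have been described with their families. On chromosome I, F55A12.6 (2.21, 2.48 and 3.27) adjoined F48C1.8 and F48C1.9.

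Of the lower runs, the longest was that of the lectin genes. clec-67, clec-68, clec-70, clec-71 and clec-72 on chromosome IV were lower by means of -1.65 to -3.30, and every member was strongest on array 2 and weakest on array 3. On II, math-15, math-14 and math-10, which encode MATH domain proteins, had means of -2.39, -2.53 and -2.55. On X, Y62H9A.3, Y62H9A.4, stha-3 and ule-5 had means of -2.47 to -3.32 and were weakest on array 1 and strongest on array 3, the array on which their wild-type signal was highest. ule-5 is named for a protein of the uterine lumen. T15D6.8, T15D6.11 and E03H4.4 on I had means of -3.14, -3.12 and -1.67, and E03H4.4 was well above background on 1 array in each channel. Members of several runs are close copies of each other, and whether their probes cross-hybridize was not tested, since the probe sequences are not in the files used here.

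**Figure D4:**
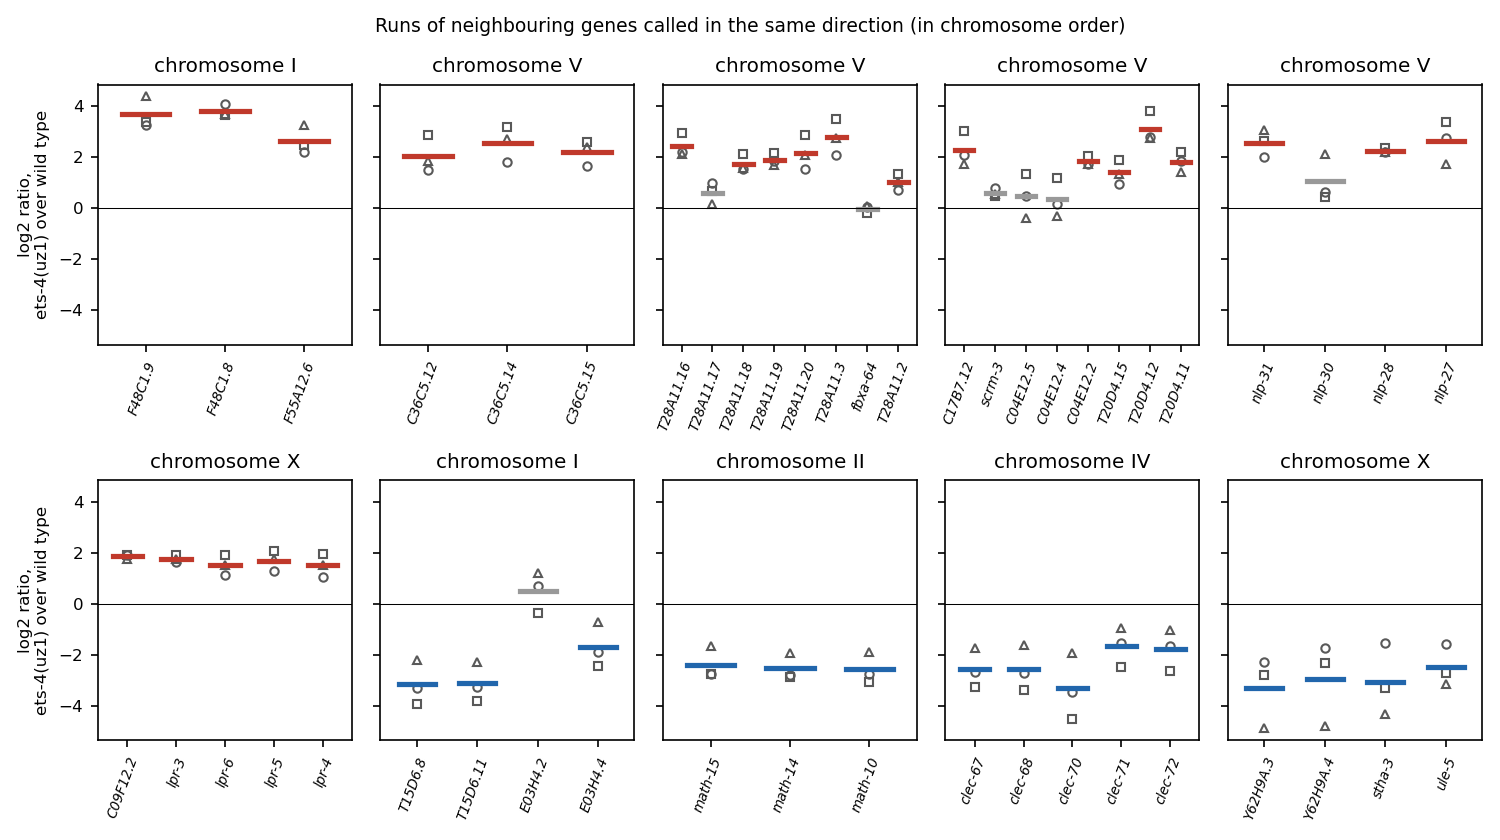
Log2 ratios of ets-4(uz1) to wild type on the 3 arrays (circle, square and triangle for arrays 1, 2 and 3) and their mean (bar, red or blue where called and gray where not) for the tested genes of the 10 chromosomal runs, in chromosome order. By the definition of a run its called genes share a side of 0, while the uncalled genes inside runs had means from -0.02 (fbxa-64) to 1.07 (nlp-30).

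The comparison with ets-4(ok165) asked which of these changes differed between the 2 mutant strains. Both strains were set against N2 on arrays of the same kind, so that dye preference cancels in the difference. By the contrast within the limma fit, 24 of 14760 genes (0.163%) differed at an adjusted p under 0.05, 13 of them called higher and 7 called lower in ets-4(uz1). With the block the number was 92 (23 of the 24 included), with scan as a random block 554, after normexp 7 and without the filter on dim probes 1. Without ets-4(uz1) array 1, 2 or 3 it was 0, 5 and 0.

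Of the genes higher in ets-4(uz1), far-3 differed most, at 4.01 against -1.14 in ets-4(ok165), with ok165 ratios of -0.49, -1.75 and -1.17 (difference 5.15 ± 0.35, adjusted p = 0.013). F48C1.9 (difference 4.35), C45B2.3 (3.48), Y39H10A.1 (3.38), C01B4.8 (3.23) and the LysM domain gene lmd-4 (3.14) followed. lmd-4 was at least 5.08-fold higher in ets-4(uz1) than in wild type, since its wild-type channel was not well above background. The antimicrobial genes nlp-31 (difference 2.84 ± 0.33, adjusted p = 0.034), nlp-28 (2.08 ± 0.22, adjusted p = 0.027) and fip-1 (2.31 ± 0.25, adjusted p = 0.027) also differed, with ok165 means of -0.26, 0.19 and 0.51. Among the genes lower in ets-4(uz1), F36H12.13 was at -4.48 against -0.08 in ets-4(ok165), whose 3 ratios were -0.48, 0.47 and -0.24 (difference -4.40 ± 0.31).

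A group of 4 genes was lower in ets-4(uz1) and had positive means in ets-4(ok165). gtnt-17 gave -2.70, -3.82 and -2.46 on the uz1 arrays and 1.24, 2.21 and 2.41 on the ok165 arrays (difference -4.95 ± 0.46, adjusted p = 0.017). Its neighbor gtnt-18 differed by -4.50, and T15D6.8 and T15D6.11 by -4.48 and -4.53. The 2 strains did not overlap on any array for these genes, which were chosen by this contrast on the same arrays. In the same limma fit none of the 4 passed the test of ets-4(ok165) against wild type, with adjusted p from 0.078 to 0.46.

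**Figure D5:**
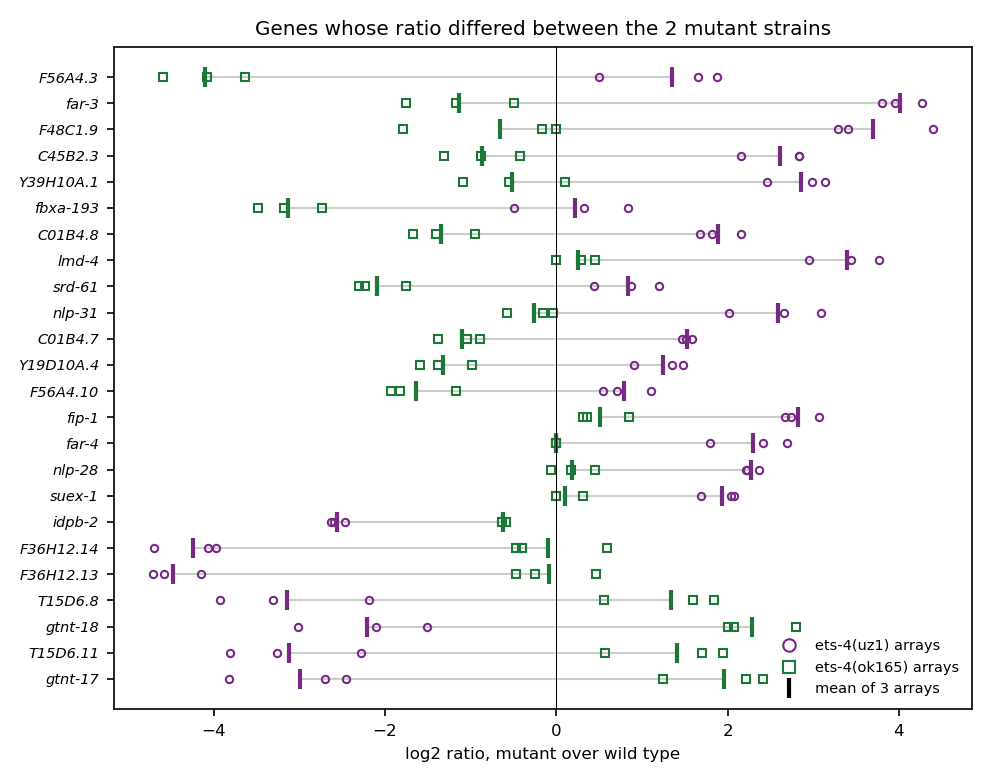
Log2 ratios to wild type on the 3 ets-4(uz1) and the 3 ets-4(ok165) arrays (circles and squares) with the mean of each strain (ticks) for the 24 genes that differed between the strains. The arrays of the 2 strains do not overlap for any of these genes, a separation favored by their choice from the same arrays. The differences run from -4.95 (gtnt-17) to 5.45 (F56A4.3).

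A missing call does not show that the strains act alike. asp-12 (-4.16 and -4.20 in the 2 strains), ech-9 (-3.93 and -3.41), oac-10 (-3.31 and -3.36) and lys-7 (3.02 and 2.47) had similar means and did not differ at an adjusted p under 0.05, and neither did col-19 (-3.25 and -0.77), whose means lay further apart. Both sets of ratios share N2 as the reference strain, so they are given side by side only.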

How the data were processed

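Total RNA of L4 worms was hybridized to two-color Agilent arrays, with N2 (Cy3) and mutant (Cy5) on every array. The authors' scanner files hold, for each spot, a log10 ratio of Cy5 to Cy3 and background-subtracted, dye-normalized (LOWESS) signal intensity, made with Agilent Feature Extraction 8.5.1.1 (number 1 arrays) or 9.1.3.1 (others) per the file headers. The authors also deposited a value table, found to be the log2 ratio (r of 0.997 or more with the scanner ratios, column medians of 0, same direction). The genome build of the probes is not given in the sources used here, and intensities are in arbitrary units. Spots whose deposited ratio is exactly 0 made up 15.5 to 19.5% of the ets-4(uz1) arrays.

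Here the log10 ratio was converted to log2, control spots and outlier-flagged spots were left out, spots of a probe were averaged and the brightest probe per gene was kept. Of 18873 genes, 18121 matched the RefSeq gene table used for symbols. Of these genes, 823 had several probes. Genes with 1 or both channels well above background on 3 or more of the 6 arrays were tested (14760) with limma 3.58.1 in R 4.3.3 on all 6 arrays (a mean per strain, 4 residual degrees of freedom) with Benjamini-Hochberg adjustment at 0.05. Same-numbered arrays of the strains deviated together over 14581 genes (r = 0.51, 0.69 and 0.29), so the array numbers of the titles were taken as pairs and a fit with the number as a block is given beside results it changed by over 1.5 times. Where a channel was dim on all arrays of a strain, the fold is a bound ("at least"), set from the higher of the lowest signal among spots well above background and the dim spot's own. Array 1 was on a slide with ets-4(ok165) array 1, arrays 2 and 3 shared a slide, and arrays 2 and 3 were each scanned with the ets-4(ok165) array of that number. The genes named are ets-4, the 12 largest changes per direction with a measured level in both channels on at least 1 array, up to 4 called members per direction of each family, short families whole, chromosomal runs, up to 6 genes per direction that differed from ets-4(ok165), and called genes of the highest signal. Other genes named, called or uncalled, were chosen after their values were seen. Members, families and tests were chosen with earlier results of these data known. The fit was tested on simulated data. Alternatives changed the arrays in the fit, blocks, filter, background correction, source, probe choice and test.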

Additional observations from a re-analysis of the deposited data

Results flagged for a closer look

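The difference between ets-4(uz1) and ets-4(ok165) was itself tested for every gene, and 24 genes passed at an adjusted p under 0.05 by limma (997 at an unadjusted p under 0.05). Differences are log2 ratios in ets-4(uz1) minus those in ets-4(ok165).

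The ratio was lower in ets-4(uz1) for gtnt-17 (-4.95), T15D6.11 (-4.53), gtnt-18 (-4.50), T15D6.8 (-4.48), F36H12.13 (-4.40), F36H12.14 (-4.16) and idpb-2 (-1.95). It was higher in ets-4(uz1) for suex-1 (1.83), nlp-28 (2.08), far-4 (2.30), fip-1 (2.31), Y19D10A.4 (2.57), C01B4.7 (2.63), nlp-31 (2.84), lmd-4 (3.14), C01B4.8 (3.23), Y39H10A.1 (3.38), C45B2.3 (3.48), F48C1.9 (4.35) and far-3 (5.15). For far-4 the deposited ok165 ratio was exactly 0 on all 3 arrays. Its difference therefore equals its ets-4(uz1) mean and is not a measured contrast between the strains. The ok165 ratio of suex-1 was exactly 0 on arrays 2 and 3, and those of lmd-4 and F48C1.9 on array 3.

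The remaining genes were not called against wild type in ets-4(uz1), and their differences came with lower ratios in ets-4(ok165). They were F56A4.10 (2.43), the chemoreceptor gene srd-61 (2.93), the F-box gene fbxa-193 (3.36) and F56A4.3 (5.45). The mean ratios in ets-4(uz1) and ets-4(ok165) were 1.35 and -4.10 for F56A4.3, and 0.22 and -3.13 for fbxa-193.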

How the results depend on the processing

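The number of genes called depended on the settings, while none of the 159 called genes named by rule changed sign under any setting that tested it (not all passed the both-channel filter). With array number as a block, 1063 genes were higher, 1229 lower and 92 different from ets-4(ok165), and all 159 kept their call. Without the filter on dim probes the counts were 90, 38 and 1. After normexp and loess, 7 genes differed from ets-4(ok165) (257 higher and 142 lower against wild type), and with scan as a random block 554 did (322 higher and 205 lower against wild type). Leaving out an ets-4(uz1) array gave 29 to 46 higher, 19 to 50 lower and 0 to 5 different genes, fits that have fewer samples. Rank Products called 312 higher and 218 lower, of which 345 were among the 522. Of the 159 named genes, 41 kept their call without the filter on dim probes. Without array 1, 2 or 3 it was 41, 41 and 49, after normexp and loess 110, and with Rank Products 136. These 159 genes were picked because they were called, which favors a stable sign. The cause of the other shifts was not tested. Slide block, both-channel filter, value table, flagged spots, exact zeros and probe averaging left the counts against wild type within 1.5 times. The uncalled gene daf-16 changed sign to -0.0396 with the mean of its probes (0.31 otherwise). Genes not above background in either channel have no measurable ratio here.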
